A study of Homo sapiens with 9 samples.

Results

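Starts of transcription with comparable nascent RNA on both sides were followed after UV-C. Members were chosen on the mean of the 3 mock libraries: the downstream side, from the start to 10 kb, had to hold a deposited signal of 2 or more per 200-bp bin, and the upstream side, from 10 to 2 kb before the start, between 0.5 and 2 times that level. Of the 7936 identifiers present in all 9 libraries, 391 met the rule. Another 2278 identifiers met the downstream minimum with an upstream side under 0.5 times the downstream side, called starts with low upstream signal here, and 163 had an upstream side above 2 times the downstream side. The rule used measured mock levels, so the closeness of both sides in mock is a description and is not tested. The mock libraries that chose the members are also the reference of every change against mock.

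Signal before a start has several known sources. Most human promoters also fire in the antisense direction, and some lie head to head with another gene's promoter. RNA polymerase II can also run past the end of one gene towards the start of the next, and an annotated start can lie inside a longer unit that is transcribed from further upstream. UV-C leaves lesions that halt RNA polymerase II, so RNA synthesis far from a start is lost more than synthesis near it, and it returns as lesions are removed. STK19 is a factor of transcription-coupled repair, the branch of nucleotide excision repair that is set off by a stalled polymerase.

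Nascent RNA was read by BrU-seq: bromouridine is fed to the cells briefly, the RNA that incorporates it is captured with an antibody, and its sequence is read. The cells were RPE1, a human retinal pigment epithelium line, and all groups shared the background written RPE1 iCas9 p53/puro-dKO. The 3 lines were WT, STK19-KO (called KO here) and STK19-KO+STK19-TY (called rescue), and the sources used here do not say whether each is 1 clone. Each line had a mock library and libraries from 3 h and from 16 h past a UV-C dose of 12 J/m2. The pulse lasted 30 min at 2 mM bromouridine and, by one label, started 2.5 h or 15.5 h past irradiation. There was 1 library for each line and condition, so no difference between 2 libraries had a replicate check. Tests used the 3 lines as blocks, and their p-values measure how far the lines differed, not the spread between cultures.

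The libraries had been scaled to similar summed signal, and a change of total RNA synthesis would not appear in them. Relative depth differed by 13.1-fold, from KO at 3 h (the shallowest, set to 1) to WT at 16 h. The median member had an upstream signal of 40 steps of the smallest value in KO at 3 h and 588 in WT at 16 h, so the KO 3 h values are the least precise. The upstream side was at 0 for 6 members in KO at 3 h, for 2 in KO at 16 h, and for 1 each in WT and rescue at 3 h. No identifier matched the gene table at hand, so members carry no gene names or sequences here, and neither STK19 nor markers of retinal pigment epithelium could be looked up. Libraries could therefore not be checked against their labels.

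In mock, the downstream side of the members had a median signal of 5.24 per bin, between 2.00 and 172.5, and the upstream side a median of 5.06, between 1.05 and 133.5. The upstream side was the higher one in 173 members and the lower one in 218. Nearest to the limits, the lowest downstream level inside was 2.001 and the highest outside 1.985. The ratio of upstream to downstream ran from 0.501 to 1.98 inside, and the nearest values outside were 0.499 and 2.003. Between both sides, the last 2 kb before the start held a median of 1.04 times the lower side, with quartiles of 0.494 and 2.04. Most members thus had no empty stretch before the start, while in others the signal fell away between a neighbour and the start. Signal from 30 to 10 kb upstream was at a median of 0.698 times the upstream side, and signal from 10 to 30 kb downstream at 0.515 times the downstream side.

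Where windows of different identifiers cover the same stretch of genome, they share reads, and their differences between libraries match once shifted and turned. By this match, 246 of the 391 members shared part of their 200-kb window with another listed start. Matches with the window turned round, 198 pairs, were as close as matches in the same orientation, 222 pairs, with a median r of 0.83 and 0.82. Turned windows would not match if each had held only its own strand, so reads of both strands had been counted together. Signal on the upstream side can thus be sense or antisense RNA. A start pointing the other way was found 2 to 10 kb upstream of 39 members, and 32 of those neighbours were members themselves. For 90 members with no divergent start 2 to 10 kb upstream, a start pointing the same way was found anywhere up to 100 kb upstream. A nearer start pointing the other way, beyond 10 kb, was allowed. Only 3 members had a start pointing the same way within 10 kb. For 262 members neither was found among the listed identifiers. In all, 44 members overlapped another member within 20 kb, and 369 were left when each overlapping set was counted once.

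The median member had a peak in the first 2 kb after its start and a lower, broader level on the upstream side. In WT mock the median signal was 9.20 from 0 to 2 kb and 3.11 from 4 to 2 kb upstream, and it was 4.20 from 8 to 6 kb upstream. That upstream shoulder stood above the level from 4 to 2 kb upstream in all 9 libraries. Both stretches lie in the upstream side, whose mean mock level the rule used. At 3 h the shoulder stood at 4.18 in WT, and the median 30 to 28 kb upstream was 1.06 against 2.03 in mock. At 16 h WT stood above its mock at that distance, at 2.88, while KO was at 1.70 against 2.20 in its mock.

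**Figure D1:**
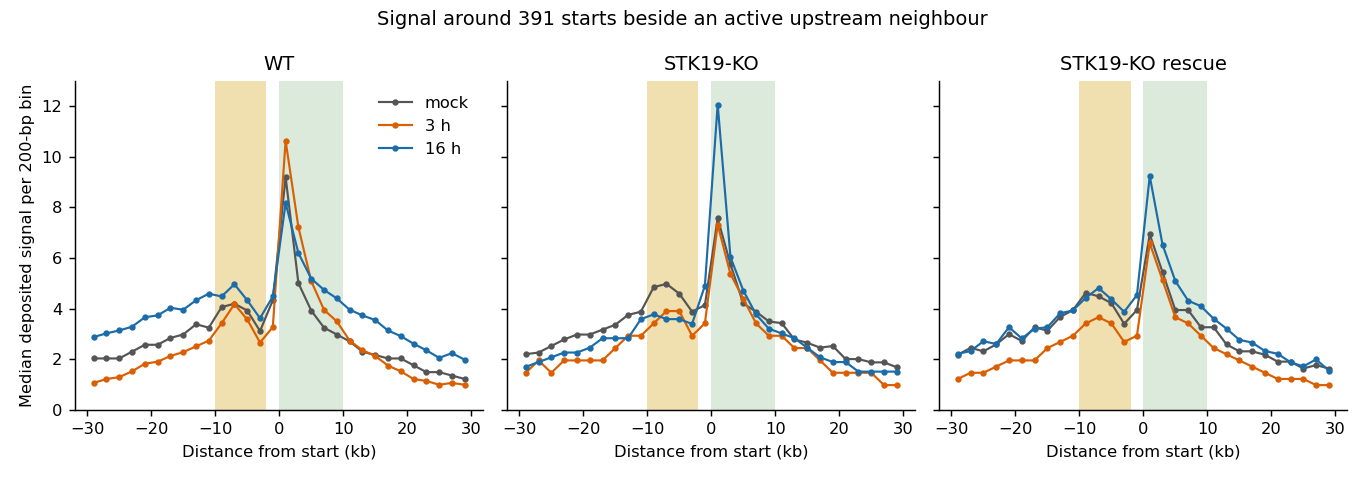
Median deposited signal per 200-bp bin over the 391 members (vertical axis) in 2-kb windows by distance from the start in kb (horizontal axis), with 1 panel per line and 1 line colour per condition. The sand band is the upstream side and the green band the downstream side; at 16 h the first 2 kb reached 12.1 in KO, 9.24 in rescue and 8.18 in WT.

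At 3 h after UV the upstream side stood lower against mock than the downstream side in all 3 lines. In WT the median log2 change was -0.04 upstream and 0.26 downstream, in KO -0.135 and 0.06, and in rescue -0.09 and 0.05. Within a member, the upstream change minus the downstream change had a median of -0.12 (WT), -0.15 (KO) and -0.12 (rescue), and it was below 0 in 219, 221 and 224 of the 391 members. The spread between members was several times larger than these medians. In WT the quartiles of that difference were -0.73 and 0.41. Over all 2832 starts with the downstream minimum, the median difference was -0.35 (WT), -0.24 (KO) and -0.13 (rescue), though most of their upstream sides are near the pseudocount of 0.5, which shrinks a change.

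By limma over all 3 lines at 3 h (adjusted p under 0.05), 71 of 384 members tested had a changed upstream side, 21 higher and 50 lower. Of the 1763 identifiers tested on that side, 18.1% were called, 8.56% higher and 9.53% lower, with a median log2 change of 0.06 against -0.12 in the members. The downstream side was called in 98 of 390 members, 42 higher and 56 lower. Among the 3508 identifiers tested there, 19.1% were called, 13.8% higher and 5.3% lower, and the median was 0.28 against 0.11 in the members. The balance of directions downstream was not stable: with a mock level of 4 or more it was 33 higher and 26 lower, and in a fit of only the 2 conditions 87 higher and 70 lower. Upstream, the sign of the median log2 change also depended on level. In the 107 members with 8 or more on both sides in mock it was 0.26 (WT), 0.07 (KO) and 0.22 (rescue), above mock in each line. Among the starts with low upstream signal, the downstream side was called higher in 352 and lower in 82 of 2276. Starts with an upstream side above 2 times the downstream side leaned to lower calls, as the members did. Upstream, 9 of 163 were higher and 21 lower, and downstream 10 of 162 were higher and 22 lower. The lean was thus not particular to the members. Whether the members differ from either set was not tested. Without the rescue line the members' calls at 3 h came to 26 upstream and 33 downstream, and without the KO line the downstream calls came to 50. Without the filter on low levels, which brings all 7936 identifiers into the fit, 2 members were called upstream and 8 downstream at 3 h, and 3 and 18 at 16 h.

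The direction of 1 side depends on how libraries are scaled. With trimmed-mean factors, the median of all identifiers tested moved at 3 h from 0.28 to -0.04 downstream and from 0.06 to -0.24 upstream, and at 16 h from 0.39 to 0.06 downstream and from 0.22 to -0.11 upstream. Members' upstream calls were then 15 higher and 80 lower at 3 h and 15 higher and 77 lower at 16 h, and their downstream calls were 16 higher and 74 lower at 3 h and 26 higher and 73 lower at 16 h. All identifiers tested shifted to lower calls too: upstream 4.46% were higher and 14.8% lower at 3 h and 4.86% and 14.5% at 16 h, and downstream 6.65% and 9.69% at 3 h and 9.64% and 13.1% at 16 h. The difference between both sides of a start hardly depends on scaling, since a common factor cancels in it apart from the pseudocount. Relative to all identifiers tested, the members' median was lower by a similar amount under either scaling. That follows from the scaling itself, since a library's factor shifts both alike apart from the pseudocount. The background also holds identifiers that were low in mock, which the members are not, and the part of this in the gap was not tested.

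The difference between both sides was tested directly in 384 members. At 3 h against mock, 38 passed limma's test, 7 with the upstream side higher relative to the downstream side and 31 with it lower. Among the 1299 identifiers tested, 9.55% passed, 3.39% in the higher and 6.16% in the lower direction, so the number of members called was close to that background. In the members the median difference was -0.13, and over all tested it was -0.08. Without the rescue line 5 members passed (49 at an unadjusted p under 0.05), and without the WT line 25. Without the filter on low levels 7 passed. The difference was below 0 in all 3 lines in 134 members and above 0 in all 3 in 84, counts made in the members alone.

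At 16 h the lines differed in which side stood above mock. WT had median log2 changes of -0.06 upstream and -0.01 downstream. KO had -0.15 upstream and 0.34 downstream, and rescue 0.08 and 0.30. The median difference between both sides was -0.01 (WT), -0.27 (KO) and -0.06 (rescue), with 201, 239 and 213 members below 0. By limma over the lines, the upstream side was called in 74 of 384 members, 36 higher and 38 lower, where 21.3% of all tested identifiers were called (12.5% higher, 8.85% lower). The downstream side was called in 101 of 390, 58 higher and 43 lower, where 28% of all tested were called, 21.3% higher and 6.64% lower. Without the rescue line these counts were 19 and 27, without the KO line 33 and 28, and without the WT line 111 and 142. The direction downstream turned with the line left out, at 7 higher and 20 lower without rescue, 12 and 16 without KO, and 101 and 41 without WT. The difference between both sides was called in 39 members, 11 higher and 28 lower, against 10.7% of all tested identifiers (4.7% higher, 6% lower). Without the rescue line no member passed this test of limma (56 at an unadjusted p under 0.05), and without the KO line 12 passed, 7 higher and 5 lower, so the excess of lower calls did not hold there.

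From 3 h to 16 h, a comparison that does not use the mock libraries, the difference between both sides was called in 33 members, 15 higher and 18 lower, beside 11.2% of all tested identifiers (6.54% higher, 4.62% lower). Its median was 0.06 in the members and 0.07 over all tested. No member passed limma's test without the rescue line (44 at an unadjusted p under 0.05), and 15 passed without the KO 3 h library. In WT the median change from 3 h to 16 h was -0.05 upstream and -0.26 downstream. In rescue it was 0.37 and 0.31, and in KO 0.10 and 0.24.

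Whether KO differed from WT and rescue in the balance of both sides was tested with a KO-by-time term, which leaves 2 residual degrees of freedom. On simulated data, this term at 16 h recovered 0 of the 2-fold and 0 of the 4-fold changes put in. A count of 0 thus does not show that the lines act alike. No member passed limma's test at 3 h or at 16 h, and 0% of the 1299 identifiers tested were called at either time. At an unadjusted p under 0.05 there were 23 members at 3 h and 35 at 16 h. The median KO term was -0.06 at 3 h and -0.27 at 16 h in the members, and -0.06 and -0.21 over all tested. With a pseudocount of 2 in place of 0.5, 8 members passed at 16 h, all with the upstream side lower in KO relative to the downstream side, beside 1.54% of all tested identifiers (0.231% higher, 1.31% lower).

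On the deposited scale at 16 h, the KO medians stood furthest above mock next to the start, and rescue was above mock there too. The first 2 kb after the start had a median log2 change of 0.53 (KO), 0.39 (rescue) and -0.28 (WT), and the signal there was above mock in 250, 252 and 142 members. The last 2 kb before the start had 0.49, 0.30 and -0.19, with 238, 238 and 154 members above mock. On the deposited scale the lines were closer further out. From 2 to 10 kb downstream the KO median was 0.10, against 0.16 in WT and 0.28 in rescue, and from 6 to 2 kb upstream it was -0.12, against -0.06 and 0.08. Starts with low upstream signal had larger values, at 0.79 in KO and -0.39 in WT for the first 2 kb and 0.69 and -0.19 for the last 2 kb before the start, so this order of KO and WT was not limited to starts beside a neighbour. With trimmed-mean scaling the members' medians became 0.12 (KO), -0.12 (rescue) and -0.35 (WT) for the first 2 kb and 0.06, -0.18 and -0.26 for the last 2 kb before the start: rescue changed sign, and the order of the lines was the same. Further out the lines were then not closer, with -0.29 (KO), -0.22 (rescue) and 0.10 (WT) from 2 to 10 kb downstream and -0.48, -0.36 and -0.13 from 6 to 2 kb upstream, where WT stood highest. These values come from 1 UV library and 1 mock library each and have no test.

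Both sides of a member tended to move together. Across the 391 members, Pearson's r between the upstream and the downstream change was 0.49 (WT), 0.40 (KO) and 0.53 (rescue) at 3 h, and 0.51, 0.48 and 0.58 at 16 h. Spearman's rho lay between 0.37 and 0.54. Both sides moved the same way in 61.6% to 70.6% of members. These correlations are across regions of the same libraries, which share depth and in part reads, and they are given as descriptions. With overlapping members counted once, r lay between 0.40 and 0.58. For the change from 3 h to 16 h, which leaves the mock libraries out, r was 0.60 (WT), 0.42 (KO) and 0.50 (rescue). In the starts with low upstream signal r was lower, from 0.19 to 0.29 against mock and from 0.23 to 0.31 from 3 h to 16 h, where upstream sides hold little signal, with a median of 0.165 per bin in WT mock. The part of that in r was not tested. In the 107 members with 8 or more on both sides in mock, r was 0.31 (WT), 0.34 (KO) and 0.50 (rescue) at 3 h and 0.39, 0.52 and 0.52 at 16 h. Among the 163 starts whose upstream side was above 2 times the downstream side, r lay between 0.33 and 0.61.

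Agreement across the start was weaker than agreement within a side. Changes over 0 to 5 kb and 5 to 10 kb downstream had r between 0.51 and 0.77 over the 6 comparisons, and changes over 10 to 6 kb and 6 to 2 kb upstream between 0.50 and 0.75. Windows of 3 kb on either side of the start, from 5 to 2 kb upstream and from 2 to 5 kb downstream, had r between 0.29 and 0.54. Each of the 6 comparisons had a lower r across the start than within either side, though the windows across the start were narrower and further apart. The lowest values came from KO at 3 h, the shallowest library, at every one of these pairs of windows.

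**Figure D2:**
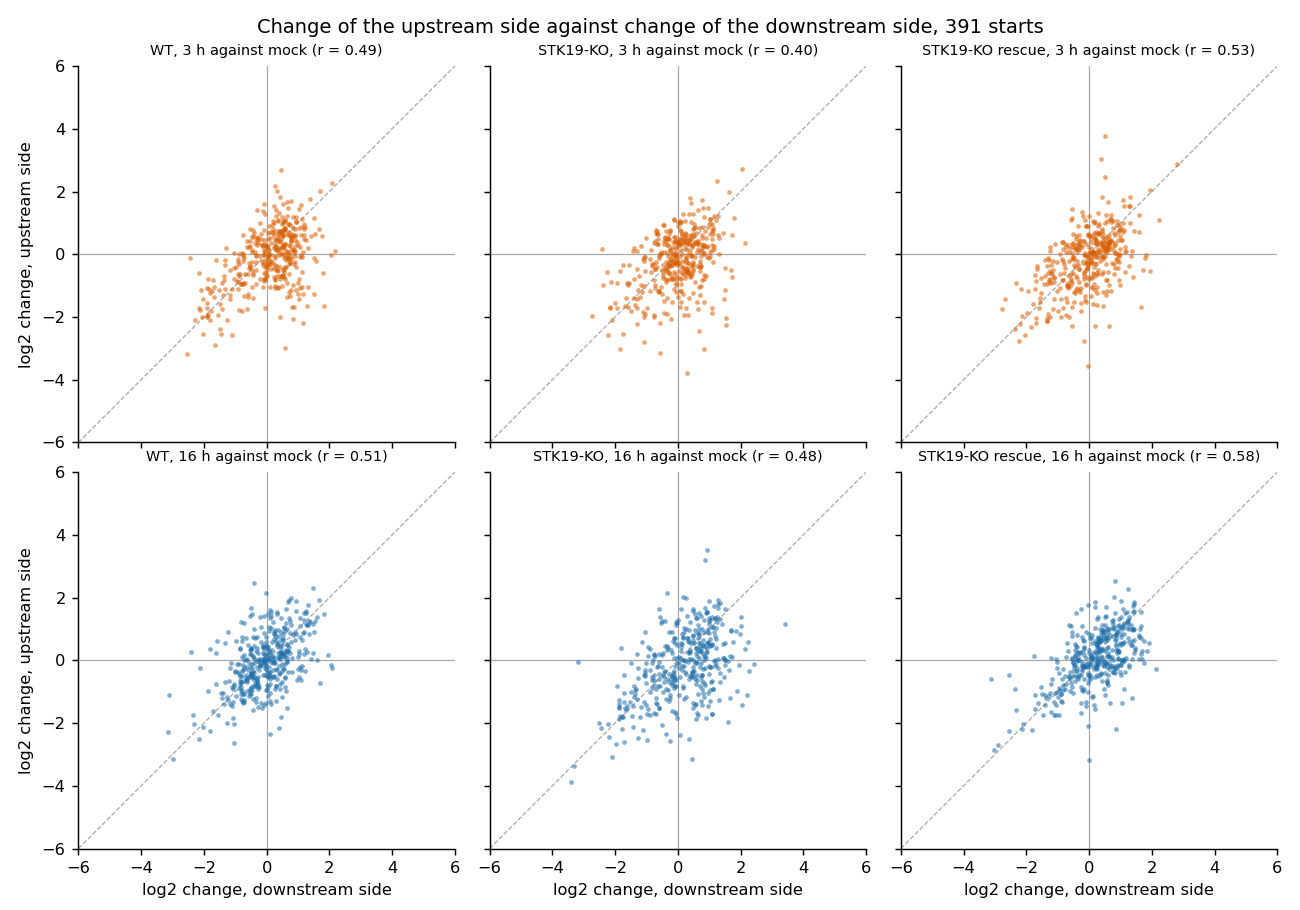
Each point is 1 of the 391 members, with its log2 change against mock downstream (horizontal axis) and upstream (vertical axis), pseudocount 0.5, for 3 lines (columns) at 3 h (top) and 16 h (bottom). The dashed line marks equal change; r runs from 0.40 in KO at 3 h to 0.58 in rescue at 16 h, and in WT at 3 h the lower left holds 35 members that were at least 2-fold lower on both sides.

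Along the window, the upstream stretches had a higher r with the downstream side in the members than in the starts with low upstream signal. Those starts are low upstream by the rule, with a median of 0.165 per bin in WT mock, where the pseudocount shrinks a change. The part of this in r was not tested. In WT at 3 h, r with the change over 0 to 10 kb was 0.52 for the last 5 kb before the start, 0.46 from 10 to 5 kb upstream and 0.30 from 30 to 25 kb upstream. For the starts with low upstream signal the same values were 0.33, 0.14 and 0.04. Rescue at 16 h had the highest values in the members, with 0.66, 0.55 and 0.42. The 163 starts with the upstream side above 2 times the downstream side had values near those of the members over the first 10 kb, with 0.50 and 0.39 in WT at 3 h and 0.64 and 0.60 in rescue at 16 h, and from 30 to 25 kb upstream had 0.08 and 0.41. On the downstream side both sets were close to each other near the start. From 10 to 15 kb downstream, r in WT at 3 h was 0.66 in the members and 0.57 in the starts with low upstream signal.

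**Figure D3:**
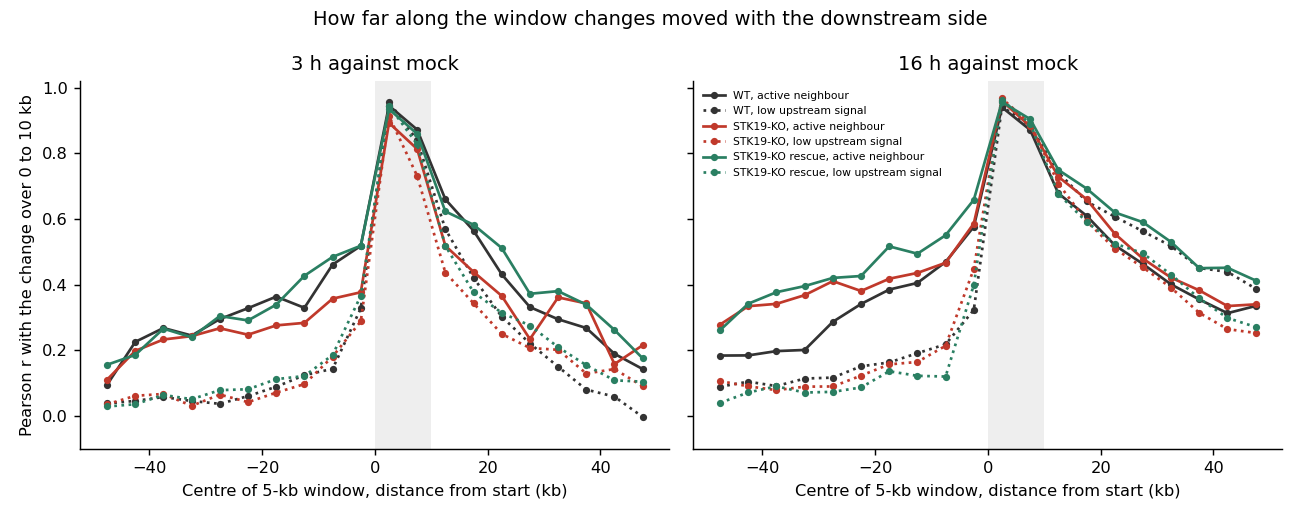
Pearson's r across starts (vertical axis) between the log2 change in a 5-kb window and the change over 0 to 10 kb, by the window's distance from the start in kb (horizontal axis), at 3 h (left) and 16 h (right). Solid lines are the 391 members and dotted lines the 2278 starts with low upstream signal, whose upstream levels are low by the rule. The windows inside the grey band are part of the reference itself. From 10 to 5 kb upstream the members lie between 0.36 and 0.55 and the other starts between 0.12 and 0.22.

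Among the members, joint losses were more frequent at 3 h than joint gains among the large changes. In WT at 3 h, 35 members were at least 2-fold lower on both sides and 7 at least 2-fold higher on both. The numbers were 26 and 9 in KO and 27 and 10 in rescue. Over all 2832 starts with the downstream minimum, joint losses and gains at 3 h were 54 and 72 in WT, 59 and 38 in KO and 52 and 71 in rescue, and over the 163 starts with the higher upstream side 10 and 0, 11 and 1, and 11 and 4. In the 107 members with 8 or more on both sides in mock they were 4 and 2, 3 and 4, and 2 and 5, so the excess of losses did not hold there in KO and rescue. At 16 h the members had 23 and 18 in WT, 37 and 21 in KO and 25 and 25 in rescue. Over all 2832 starts, joint losses and gains were then 74 and 39, 84 and 114, and 42 and 101. Opposite changes of at least 2-fold on each side occurred at 3 h in 10 members (WT), 6 (KO) and 1 (rescue), and at 16 h in 0, 8 and 2. In every such case on the deposited scale the upstream side was the lower one, and 0 members were at least 2-fold higher upstream and at least 2-fold lower downstream. Over all 2832 starts, opposite changes at 3 h had the upstream side lower in 17 (WT), 12 (KO) and 10 (rescue). It was the higher one in 0, 2 and 4. At 16 h it was lower in 2, 24 and 5 and higher in 2, 8 and 4. With trimmed-mean scaling, the members' joint losses and gains at 3 h were 57 and 2 in WT, 36 and 4 in KO and 43 and 6 in rescue. In KO at 16 h, 1 member was then higher upstream and lower downstream. These counts are of single libraries and have no test.

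Of the members called by limma at 3 h, 37 were called on both sides, 28 lower on both, 5 higher on both and 4 in opposite directions. They made up 52.1% of the upstream calls and 37.8% of the downstream calls. Of the 1299 identifiers tested on both sides, 7.01% were called on both at 3 h, 3% higher and 3.46% lower, and of the 384 members 9.64%, 1.3% higher and 7.29% lower. At 16 h, 27 were called on both sides, 17 lower on both and 10 higher on both, with 0 in opposite directions. They were 36.5% of the upstream and 26.7% of the downstream calls, and 7.03% of the members tested, beside 7.78% of all tested. Whether these shares differ was not tested. Counted by direction only, both sides were higher in all 3 lines in 57 members and lower in all 3 in 68 at 3 h, and in 48 and 40 at 16 h. The upstream side was lower and the downstream side higher in all 3 lines in 30 members at 3 h, and the reverse held in 7. These direction counts were made in the members alone, so no share over all tested identifiers stands beside them.

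The lines moved alike at 3 h. Across the members, r between the lines in the difference of both sides was 0.56 for WT and KO, 0.66 for WT and rescue and 0.58 for KO and rescue, where each line has its own mock library. At 16 h KO and rescue had r of 0.70, whereas WT had 0.29 with KO and 0.44 with rescue. Upstream and downstream changes taken singly gave the same order at 16 h, with 0.73 and 0.79 for KO and rescue and 0.31 and 0.36 for WT and KO. Rescue, the line with STK19-TY, thus had a higher r with KO than with WT at 16 h, a difference that was not tested. KO and rescue both carry STK19-KO in their labels. Relative depth at 16 h was 13.1 in WT, 8.82 in rescue and 2.59 in KO. The part of depth or of the origin of the lines in these r values was not tested.

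Members differed by how far their signal reached, which was not used by the rule. Reach was set on mock levels after the data were seen, so the classes are described without a test: signal was taken to extend where its level from 10 to 30 kb was 0.5 times that of the side or more. In the 144 members whose signal extended on both sides, the upstream side had medians at 3 h of -0.41 (WT), -0.33 (KO) and -0.38 (rescue), and the downstream side of -0.09, -0.08 and -0.27. The 72 members whose signal extended on neither side stood the other way, at 0.29, 0.13 and 0.22 upstream and 0.29, 0.24 and 0.09 downstream. By limma, 30 of 140 tested members of the first class were lower upstream at 3 h and 3 higher, and 2 of 71 of the second were lower and 5 higher, beside 9.53% lower and 8.56% higher of all tested.

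Reach on the upstream side alone separated the upstream changes at 3 h in the same way. The 262 members with extended upstream signal had upstream medians of -0.20 (WT), -0.30 (KO) and -0.23 (rescue), and the 129 without it 0.27, 0.08 and 0.18. By 16 h this order had turned in WT, where the members with extended upstream signal stood at 0.11 and those without at -0.375. In KO it had not, at -0.30 and 0.10. Rescue had 0.07 and 0.11. In the 144 members with signal on both sides, the upstream median at 16 h was 0.05 (WT), -0.54 (KO) and -0.16 (rescue). The 118 members with extended signal upstream only had 0.21, 0.03 and 0.32 upstream and -0.06, 0.58 and 0.58 downstream. With trimmed-mean scaling these medians shift together within a library, so only their order within a library is free of the scale.

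The 39 members with a divergent start 2 to 10 kb upstream had medians above mock on both sides at 3 h, with 0.35 upstream and 0.42 downstream in WT, 0.30 and 0.25 in KO and 0.34 and 0.18 in rescue. At 16 h they stood below mock in WT, at -0.31 and -0.13, and above it in KO, at 0.58 and 0.54, and rescue, at 0.41 and 0.40. Since 32 of the neighbours are members too, the upstream side of one member holds part of the downstream side of another. Medians of both sides are alike partly for that reason. The 90 members with a tandem start, up to 100 kb upstream, had upstream medians of -0.13, -0.22 and -0.20 at 3 h, below downstream medians of 0.24, 0.02 and 0.13. Of their limma calls in the difference of both sides at 3 h, 8 of 89 tested were in the lower direction and 1 in the higher, and in the divergent class 2 of 39 and 1, near the 6.16% lower and 3.39% higher of all tested. At 16 h the tandem class had 12 of 89 lower and 2 higher, and the divergent class 3 of 39 lower and 1 higher. Of all tested identifiers, 6% were then lower and 4.7% higher. Whether these shares differ was not tested.

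**Figure D4:**
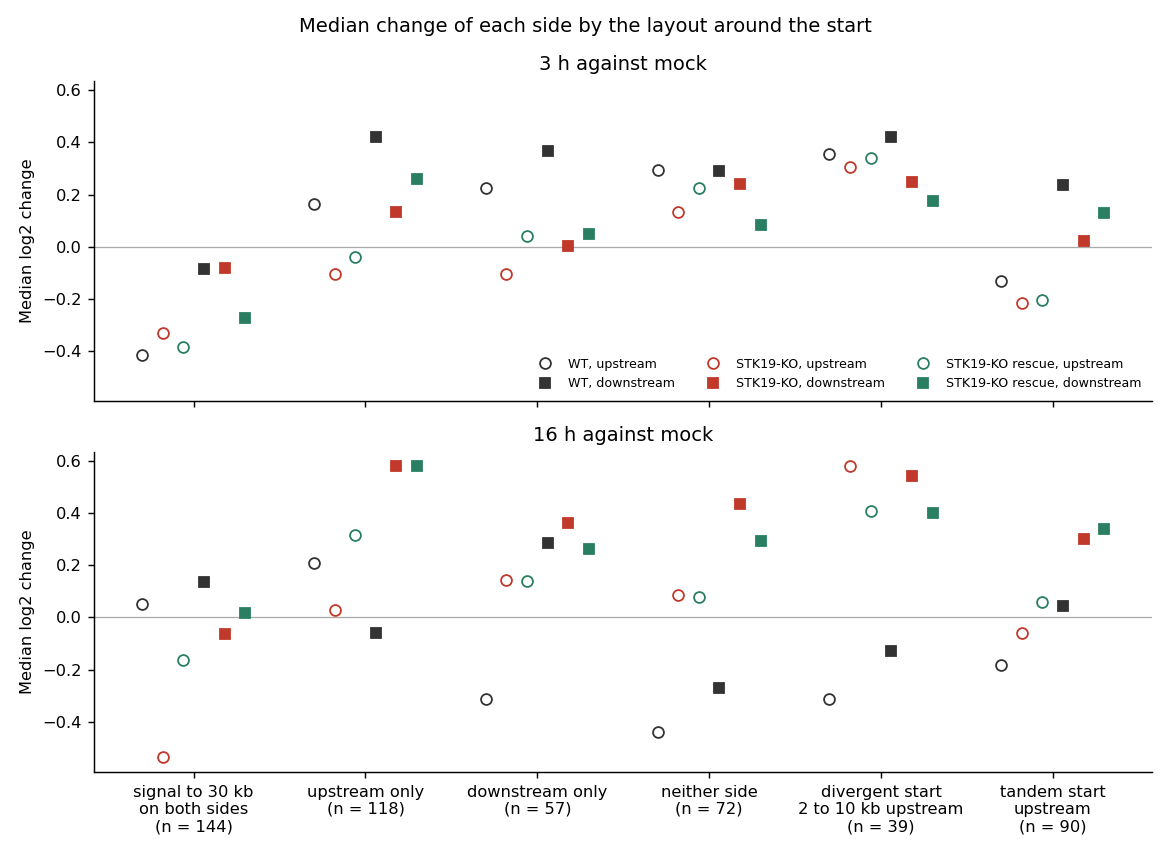
Median log2 change against mock (vertical axis) of the upstream side (open circles) and the downstream side (filled squares) for each line, by class of member (horizontal axis, number of members in brackets), at 3 h (top) and 16 h (bottom). The first 4 classes divide the members by reach and the last 2, which overlap them, by the neighbouring start found. A tandem start lies up to 100 kb upstream. Members with signal on both sides to 30 kb have the lowest upstream medians at 3 h (-0.41, -0.33 and -0.38), and the zero line itself depends on how the libraries were scaled.

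Members also differed in the stretch just before the start. In 99 members the last 2 kb before the start held under 0.5 times the lower side in mock, so a gap separated both sides, and r between the sides lay between 0.29 and 0.48 over the 6 comparisons. In the 206 members where that stretch held as much as the lower side or more, r lay between 0.42 and 0.66. In the 86 members between these classes r lay between 0.42 and 0.61. The members with a gap had medians of the difference at 3 h of -0.30 (WT), -0.17 (KO) and -0.20 (rescue). Where the stretch was filled, these were -0.0027 (WT), -0.15 (KO) and -0.07 (rescue), and in the class between they were -0.21, -0.10 and -0.23. These classes too were set after the data were seen.

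Named members were the highest and the lowest by limma's difference of both sides at 3 h, among those called and moved the same way in all 3 lines. They were thus chosen for their difference, and their values describe how such members look. Identifier uc002ivc.4 lost its upstream signal. Its upstream side stood at 5.05 (WT), 11.3 (KO) and 11.8 (rescue) in mock, and at 0.204, 0.357 and 0.536 at 3 h. At 16 h it was at 0.592, 0.828 and 2.17, still under each mock value, so mock and UV libraries did not overlap.

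On the downstream side uc002ivc.4 had 13.5, 10.1 and 9.63 in mock, 20.6, 12.6 and 9.32 at 3 h, and 14.5, 14.2 and 18.1 at 16 h. These values overlapped between mock and UV. The difference of both sides fell by 3.73 on the log2 scale at 3 h (SE 0.35, limma adjusted p = 4.92e-05) and by 3.05 at 16 h (adjusted p = 0.000347). Its signal from 30 to 10 kb upstream went from 10.2, 13.4 and 16.0 to 1.38, 3.37 and 1.83 at 3 h, so the loss reached beyond the upstream side. Neither a divergent nor a tandem start was found among the listed identifiers for it.

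Identifier uc002mbq.5 moved in opposite directions on its sides at 3 h. The downstream side stood at 10.3 (WT), 10.35 (KO) and 13.1 (rescue) in mock, and at 37.7, 29.9 and 42.1 at 3 h. Its upstream side went from 9.70, 5.03 and 4.91 to 2.74, 1.55 and 1.19. The groups did not overlap on either side. At 16 h the downstream side was back at 9.56 in WT and 11.8 in rescue, while it stood at 32.5 in KO, and the upstream side was at 6.95, 4.92 and 6.57. The difference of both sides fell by 3.24 at 3 h (SE 0.45, limma adjusted p = 0.000943), and from 3 h to 16 h it rose by 2.76 (adjusted p = 0.00325).

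Identifier uc001qlq.2 lost its downstream signal instead. That side stood at 6.28, 6.79 and 8.08 in mock, at 0.745, 0.878 and 0.830 at 3 h, and at 0.284, 0.302 and 0.476 at 16 h, with no overlap between mock and UV. Upstream it had 7.79, 2.48 and 4.38 in mock and 7.14, 2.86 and 1.31 at 3 h, which overlap. The difference rose by 2.05 at 3 h (SE 0.36, limma adjusted p = 0.00394) and by 2.56 at 16 h (adjusted p = 0.0013). Its last 2 kb before the start held 29.2, 7.11 and 7.56 in mock, more than either side except in rescue, and 19.25, 14.1 and 4.07 at 3 h.

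Identifier uc002fnq.4 gained on its upstream side, which stood at 7.53, 3.91 and 4.71 in mock and at 51.4, 21.7 and 71.4 at 3 h. At 16 h it was at 9.71 (WT), 49.6 (KO) and 17.0 (rescue), so KO was the line that stood highest. The downstream side had 3.22, 3.39 and 5.33 in mock and 4.62, 8.78 and 7.76 at 3 h. The difference rose by 2.20 at 3 h (SE 0.57, limma adjusted p = 0.0347). Signal from 30 to 10 kb upstream was 95.3, 43.4 and 54.5 in mock, and at 3 h it was 166.8 in WT and 153.4 in rescue, far above the upstream side itself, so most of the transcription before this start lay further away. In KO at 16 h both this start's upstream side and the downstream side of uc002mbq.5 were near or above their 3 h values, while WT and rescue had come down. Each value is from 1 library, with KO at 3 h the shallowest, and this pattern was not tested. In the other named members, the side that fell at 3 h was still below mock at 16 h in every line.

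**Figure D5:**
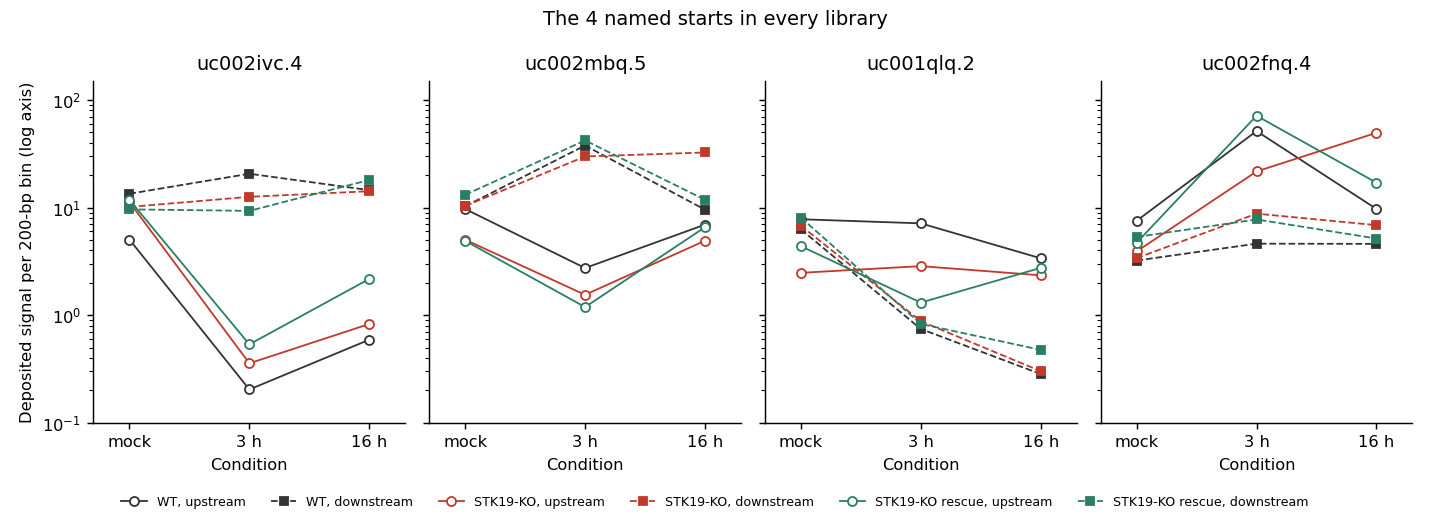
Deposited signal per 200-bp bin (vertical axis, log scale) of the 4 named members in mock, at 3 h and at 16 h (horizontal axis), with 1 point per library, open circles for the upstream and filled squares for the downstream side, and 1 colour per line. The upstream side of uc002ivc.4 goes from 5.05 to 0.204 in WT at 3 h, and the downstream side of uc002mbq.5 stands at 32.5 in KO at 16 h against 9.56 in WT.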

How the data were processed

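Nascent RNA was measured in 9 BrU-seq libraries, grouped by their titles. Per the labels' protocols, a TruSeq kit was used, and both ends were read for 151 bp. Builds GRCh38 and hg38 appear in the submitters' processing notes, as do R 4.0.5, HOMER 4.8.2, STAR 2.7.7a, Trim Galore 0.6.5 and FastQC 0.11.9, without their roles. The deposited signal is coverage in 200-bp bins, 1001 columns around each start per the file headers, scaled by the authors to similar totals; it is not a read count, so no count model was used. Each library's values came in whole steps, from 0.373 (WT 16 h) to 4.88 (KO 3 h), and the inverse of the step is the relative depth. By another label the pulse began at 3 h and 16 h. The 3 averaged tables were not used here.

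Side levels were means over 41 bins upstream and 50 bins downstream, in log2(level + 0.5), which understates the change of low levels. limma 3.58.1 (in R 4.3.3, with empirical Bayes and a mean trend, p-values adjusted by Benjamini-Hochberg) was fitted to all identifiers with a mean over the 9 libraries of at least 1 on each side used, with line as block and 4 residual degrees of freedom. On simulated data the fits recovered 24% to 36% of 2-fold and 83% to 93% of 4-fold changes shared by the lines. The KO term at 16 h recovered 0% of either size. Because that minimum can be met through UV libraries alone, the background holds identifiers that were low in mock, which the members are not. Shared windows were found from the match of differences between libraries (mean r of at least 0.5, where the lowest match was 0.679 and the highest non-match 0.328). Members and classes were chosen with earlier results of these data known. Named members were the 2 highest and 2 lowest, as the report states. Alternatives covered the pseudocount, filter, scaling, windows, member rule, block and libraries.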

Additional observations from a re-analysis of the deposited data

Results flagged for a closer look

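At 16 h the median change of a side had opposite signs in different lines. Upstream it was -0.0639 in WT and -0.15 in KO, and 0.0769 in rescue. Downstream it was -0.0109 in WT, and 0.336 in KO and 0.298 in rescue. These differences between lines were not tested, since each median comes from 1 UV library and 1 mock library. With trimmed-mean scaling the mean of the lines was -0.361 upstream and -0.118 downstream.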

How the results depend on the processing

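Counts below are of members called, in the order upstream side at 3 h and 16 h, downstream side at 3 h and 16 h, then the difference of both sides at 3 h, at 16 h and from 3 h to 16 h, where the reported counts were 71, 74, 98, 101, 38, 39 and 33. Without a filter on low levels they were 2, 3, 8, 18, 7, 3 and 6. With a ratio between 0.67 and 1.5 (239 members) they were 47, 49, 64, 61, 21, 24 and 19. With a mock level of 4 or more (237 members) the counts that moved by over 1.5 times were 41 and 59 for the sides at 3 h, 63 downstream at 16 h, 23 for the difference at 3 h and 16 from 3 h to 16 h. Fits on only the 2 conditions compared gave 140 upstream and 157 downstream at 3 h, and 18 and 21 for the difference at 16 h and from 3 h to 16 h. Without the line block there were 49 upstream and 49 downstream at 16 h, 52 downstream at 3 h and 24 for the difference at 16 h. A pseudocount of 0.1 gave 25 for the difference at 16 h, a pseudocount of 2 gave 8 for its KO term at 16 h, and leaving out the KO 3 h library gave 15 from 3 h to 16 h. Leaving out 1 line at a time gave ranges of 26 to 68, 19 to 111, 33 to 69, 27 to 142, 5 to 33, 0 to 53 and 0 to 39.

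As means of the lines, trimmed-mean scaling moved the median changes to -0.387 and -0.361 upstream and to -0.19 and -0.118 downstream at 3 h and 16 h, from -0.087, -0.0457, 0.122 and 0.208. At 3 h a mock level of 4 or more turned the upstream median to 0.0581, and the narrower ratio gave -0.135. The median difference at 3 h, -0.132, was -0.169 and -0.093 with pseudocounts of 0.1 and 2, -0.158 with the upstream side from 10 to 5 kb and -0.0792 with the narrower ratio. The mean r of 0.475 at 3 h was 0.383 in the 107 members with 8 or more on both sides, and that of 0.528 at 16 h was 0.584 with the narrower ratio. Leaving out a line gave upstream medians from -0.11 to -0.063 at 3 h and from -0.107 to 0.0065 at 16 h, downstream medians from 0.0535 to 0.16 and from 0.144 to 0.317, differences from -0.136 to -0.124 and from -0.166 to -0.0367, and r from 0.445 to 0.51 and from 0.499 to 0.549. Apart from the alternatives' own narrower or smaller sets, the cause of these shifts was not tested. KO terms could not be fitted with a line left out or with only 2 conditions. The labels give no replicate numbers; the line block already pairs each UV library with its line's mock library. Depth limits most the KO 3 h values.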
